A study of Mus musculus with 12 samples.

Results

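The genes described here were those on the distal part of mouse chromosome 6, defined as genes of chromosome 6 whose annotated region starts above position 60000000 (GRCm38) and whose mean level in the uninduced wild-type libraries was at least 1 TPM (transcript level per length, scaled to the same total in every library). Of 1033 chromosome 6 genes listed above this position, 676 were below the TPM limit and 15 were left out by name, among them subunits of the ribosome and of respiratory complex I, glycolytic enzymes and pluripotency and chromatin regulators. This left 342 members among 25759 genes in the whole series and among 11801 genes past the same TPM limit. All 342 were protein coding. The wild-type level and the position chose the members, and the region was picked with the levels of the mutant clones already known, so the comparisons between clones and wild-type are descriptions.

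The data were polyadenylated RNA sequencing libraries of mouse embryonic stem cells (ESCs), the cultured pluripotent cells of the early embryo. All 12 libraries carried the inducible Xist system, in which doxycycline switches on the endogenous Xist gene through a transactivator at the Rosa26 locus. The libraries fell into 4 groups of 3. WT_NT was the parental line without induction, WT_Dox the parental line after 48 h of Xist expression, and dCdk8_NT and dCdk8_Dox were ESCs with a homozygous Cdk8 mutation without and with the same induction. The parental HATX3 line was derived from haploid embryos and had become diploid in culture. The mutant libraries came from 3 clones, numbered 8, 11 and 15, in which a small deletion removed the Cdk8 start codon. Each clone was measured in 1 uninduced and 1 induced library, so clone and mutation cannot be told apart within any 1 clone. Nothing in the labels says whether the 3 wild-type libraries of a state came from separate cultures, and p-values then measure only the spread between these libraries.

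Distal chromosome 6 carries genes of many unrelated functions, among them chaperonin and ribosome biogenesis genes, condensin, glucose transport and a pluripotency gene cluster. Genes that are neighbours on a chromosome mostly have their own promoters and are regulated one by one, but the number of copies of a chromosome sets the level of many of its genes together. ESCs in culture are known to gain or lose chromosomes or large chromosome segments. DNA copy number was not measured in these files.

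Depth ranged from 22170087 to 60798578 gene reads per library. Members held between 3.63% and 3.83% of these reads in 10 libraries, and 2.66% and 2.63% in the uninduced and induced libraries of clone 11. The 10 ESC markers examined were all detected in every group, with summed levels between 2184 and 4096 TPM. Of 8 fibroblast markers, 1 had a mean of at least 1 TPM in the wild-type groups and 3 in the mutant groups, and Lum was below 0.1 TPM in every library, with summed levels of 6.22 to 18.2 TPM in wild-type and 20.2 to 32.4 TPM in the clones. The summed levels of 8 primitive endoderm markers were 163 to 414 TPM in wild-type and 342 to 740 TPM in the clones, those of 8 trophoblast markers 26.6 to 228 and 90.0 to 587 TPM, and those of 8 primed epiblast and germ layer markers 33.3 to 181 and 31.6 to 58.5 TPM. Their part in the results was not tested. Cdk8 itself was at 34.4, 56.8 and 85.3 TPM in the uninduced libraries of clones 8, 11 and 15 and at 64.2 to 74.2 TPM in WT_NT. After induction it was at 33.4, 57.8 and 84.9 TPM in these clones and at 51.6, 51.5 and 53.1 TPM in WT_Dox. Induced clones 11 and 15 were thus above every WT_Dox library. The study reports residual transcript of the gene in a single clone, and no detectable protein. Which parts of the gene the reads came from was not tested, so these levels do not check the labels.

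To show how different the promoters of the members are, the windows around the start sites of 2 abundant members are printed from the RefSeq promoter table (GRCm38.p6), with CG dinucleotides in capitals. Of the 342 members, 270 matched a RefSeq promoter by symbol, and for 220 the 300-base window held the start given in the deposited files. Among the 67 of these with at least 50 TPM and a single listed promoter, Ruvbl1 had the fewest CG dinucleotides and Kcmf1 the most, and both were chosen after their values were seen. The Ruvbl1 window is chr6:88465159-88465458 on the plus strand, with 11 CG. The Kcmf1 window is chr6:72899930-72900229 on the minus strand, with 51 CG.
Ruvbl1: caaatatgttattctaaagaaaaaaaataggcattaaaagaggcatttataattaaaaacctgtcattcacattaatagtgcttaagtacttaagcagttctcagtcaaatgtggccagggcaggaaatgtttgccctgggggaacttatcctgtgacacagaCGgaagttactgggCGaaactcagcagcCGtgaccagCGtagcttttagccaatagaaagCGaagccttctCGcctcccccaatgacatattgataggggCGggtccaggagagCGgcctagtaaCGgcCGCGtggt
Kcmf1: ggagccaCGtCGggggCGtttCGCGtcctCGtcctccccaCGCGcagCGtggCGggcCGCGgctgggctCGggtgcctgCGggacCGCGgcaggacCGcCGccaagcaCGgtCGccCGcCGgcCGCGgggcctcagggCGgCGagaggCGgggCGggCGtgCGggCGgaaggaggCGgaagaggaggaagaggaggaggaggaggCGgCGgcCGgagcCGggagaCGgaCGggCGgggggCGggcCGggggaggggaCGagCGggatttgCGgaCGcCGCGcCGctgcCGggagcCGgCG

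Ruvbl1, an ATPase of chromatin remodelling complexes, was at 288, 300.0 and 327 TPM in WT_NT, 242, 268 and 255 TPM in WT_Dox, 231 and 226 TPM in clone 11, 263 and 274 TPM in clone 8, and 267 and 265 TPM in clone 15. Kcmf1, a ubiquitin ligase, was at 105, 77.3 and 82.0 TPM in WT_NT, 98.2, 68.3 and 69.5 TPM in WT_Dox, 71.6 and 70.0 TPM in clone 11, 113 and 113 TPM in clone 8, and 132 and 138 TPM in clone 15. For both genes clone 11 had the lowest libraries of the 3 clones, and its Kcmf1 level after induction lay within WT_Dox. The 220 members were ranked by CG in the window and divided into 3 classes of nearly equal size. Over the 73 genes with the fewest (1 to 17 CG), the median log2 ratio of clone 11 to the WT_NT mean was −0.43. It was −0.54 over the middle class (73 genes) and −0.64 over the class with the most (74 genes, 25 to 59 CG), and the interquartile ranges of the classes overlapped. Over the same classes the medians were 0.32, 0.20 and 0.08 in clone 15 and 0.17, 0.23 and 0.06 in clone 8, so that the class with the most CG had the lowest median in all 3 clones. At least 10 CG (a pair of letters that reads the same on both strands) were found in 89.1% of the 220 member windows and in 43.9% of the windows of 27025 RefSeq genes. These groups are unlike, since the RefSeq genes were filtered neither by level nor by the position of the start.

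The first question was whether the members as a set differed in level between the clones and the parental line. In clone 11 they were lower by about the same amount in both states. The log2 ratio of TPM to the WT_NT mean, with 0.1 added to each, had a median over the 342 members of −0.55 in the uninduced and −0.55 in the induced library of clone 11, which corresponds to 0.684 and 0.683 of the wild-type level. In the 3 WT_NT libraries the median was −0.01, −0.02 and 0.01, and in WT_Dox it was −0.00, −0.05 and −0.05. Clone 8 had medians of 0.15 and 0.10, and clone 15 of 0.27 and 0.20. Both clone 11 libraries therefore lay far outside the range of the 6 wild-type libraries, and those of the other clones lay above it on the TPM scale, whereas with TMM-scaled counts the medians of uninduced clone 8 and of clone 15 were just below 0. In bulk RNA, fewer cells with a transcript and less of it per cell cannot be told apart.

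The scale of TPM moved with the library, and the median over 10823 genes of the other autosomes was 0.13 and 0.08 in clone 8, −0.01 and 0.00 in clone 11, and 0.20 and 0.18 in clone 15. Relative to these genes, the members of clone 11 were at −0.54 and −0.55. Those of clone 8 were at 0.02 and 0.02 and those of clone 15 at 0.07 and 0.02, so the members of these clones had moved with the rest of their autosomes. Below the WT_NT mean were 297 of 342 members in uninduced and 283 in induced clone 11, against 138 and 149 in clone 8 and 124 and 133 in clone 15. Of the 10823 genes of other autosomes, 51.6% and 49.9% were below it in clone 11, 41.5% and 45.2% in clone 8 and 37.1% and 40.2% in clone 15. The member shares were 86.8% and 82.7% in clone 11, and in clones 8 and 15 they were between 36.3% and 43.6%, within 2 percentage points of those of the other autosomes in each library. Measured against the mean of clones 8 and 15 of the same state instead of wild-type, the members of clone 11 had medians of −0.73 and −0.74, and 309 and 302 of them were lower. By the same measure the 10823 genes of other autosomes were at −0.17 and −0.13, with 6795 and 6378 of them lower, so that relative to these genes the members were at −0.56 and −0.61.

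**Figure D1:**
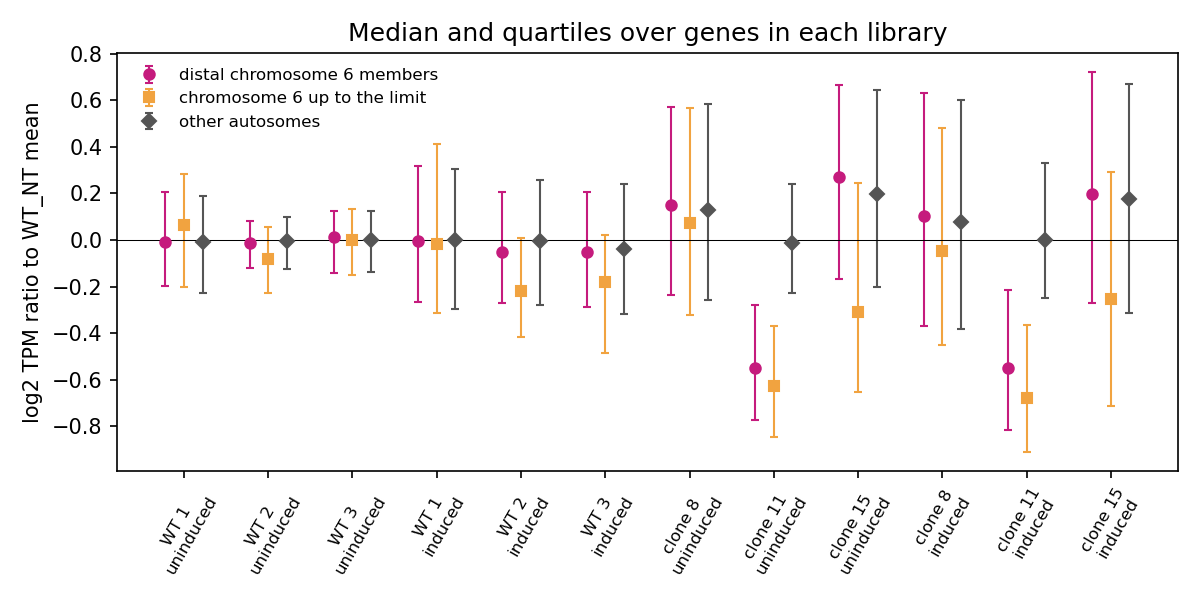
Median log2 TPM ratio to the WT_NT mean (vertical axis) in each of the 12 libraries, with quartiles over genes as bars, for the 342 members, the 179 genes of chromosome 6 up to the position limit and the 10823 genes of other autosomes. The members of both clone 11 libraries sit at −0.55 while the other autosomes sit at −0.01 and 0.00, and in clone 15 only the genes up to the limit are below 0.

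The spread of the members around this median was also examined. The interquartile range over all members was 0.49 and 0.60 in clone 11, 0.81 and 1.00 in clone 8 and 0.83 and 0.99 in clone 15. Over the genes of other autosomes it was 0.47 and 0.58, 0.84 and 0.98, and 0.85 and 0.98, so that the smaller spread of clone 11 was not particular to the members. The members were divided into 3 classes of 114 genes by wild-type level. In the highest class, from 49.8 to 1409 TPM, the median of the ratios averaged over the 2 clone 11 libraries was −0.58, with an interquartile range of 0.30. The middle class had a median of −0.60 with a range of 0.47, and the lowest class −0.44 with a range of 0.97. In the same highest class the interquartile range was 0.67 in clone 8 and 0.63 in clone 15. Classes of the same size by gene length had clone 11 medians of −0.54, −0.59 and −0.54 from short to long, and classes by position −0.52, −0.60 and −0.55.

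For each member, the 2 libraries of a clone were also set against the 3 wild-type libraries of the same state. In clone 11, 215 of 342 members (62.9%) lay below all wild-type libraries in both states, against 18.3% of all 11801 genes past the limit. Above them in both states lay 15 members (4.39%), against 17.7% of all genes. Clone 8 had 78 members below and 127 above, against 21.3% and 35.6% of all genes, and clone 15 had 55 below and 149 above, against 18.2% and 41.9%. The shares in clones 8 and 15 were near those of all genes.

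A fit of wild-type and the 3 clones over all 12 libraries (edgeR quasi-likelihood test, Benjamini-Hochberg adjustment over 15137 genes, adjusted p under 0.05) called 131 members lower and 4 higher in clone 11, against 3.53% and 3.98% of all genes tested. In clone 8 it called 66 lower and 45 higher, against 14.5% and 13.4%, and in clone 15 it called 69 lower and 30 higher, against 13.8% and 10.9%. The fit lets the clones share 1 response to induction, so each clone's term is its fitted difference from wild-type in the uninduced state. These counts use the contrast in which the region was noticed and are given as descriptions. They depended on which wild-type libraries entered. The count of called members in clone 11, in both directions, was 246 without wild-type replicate 1, 59 without replicate 2 and 67 without replicate 3, against 34.3%, 2.57% and 2.83% of all genes. It was 239, 51 and 47 in clone 8, against 56.9%, 12.8% and 13.1%, and 228, 28 and 34 in clone 15, against 56.0%, 6.49% and 8.57%. At a fold change over 2 and adjusted p under 0.01, 22, 15 and 10 members were called in clones 8, 11 and 15, against 5.23%, 1.31% and 3.09% of all genes. With a replicate block (limma-voom with an estimated correlation between the libraries of a number), 88 members were called in clone 11, of which 83 were lower, against 5.13% of all genes called and 1.61% called lower.

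The next comparison followed the ratio along the chromosome. In windows of 10 Mb with at least 10 genes, and relative to the other autosomes of the library, the 8 distal windows of clone 11 had medians between −0.85 and −0.48 uninduced and between −0.92 and −0.42 induced. Of 220 such windows on other autosomes, 0 and 1 were at or below the highest distal window in the uninduced and induced library. The lowest of these 220 was at −0.38 uninduced and −0.43 induced. In clone 8 the distal windows ranged from −0.30 to 0.28 and from −0.19 to 0.35, and in clone 15 from −0.06 to 0.15 and from −0.19 to 0.21, within the range of windows elsewhere.

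The difference of clone 11 did not start at the position limit. The 179 genes of chromosome 6 up to the limit had medians relative to the other autosomes of −0.62 and −0.68 in clone 11 (−0.54 for the induced library against the WT_Dox mean), and 116 of them (64.8%) lay below all wild-type libraries in both states, against the 18.3% of all genes given above. In clone 15 it was 75 of the 179 (41.9%), against 18.2% of all genes, and in clone 8 it was 41 (22.9%), against 21.3%. Of the other 18 autosomes, medians in uninduced clone 11 ranged from −0.06 to 0.55 and in induced clone 11 from −0.08 to 0.54. Chromosome 14 held the high value, which it also had in clones 8 and 15 (0.46 to 0.58), and the next highest were 0.01 and 0.05. No other autosome of clone 11 had a median near that of chromosome 6.

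In clone 15 the genes up to the limit and the members parted. Relative to its other autosomes, the 156 genes from the start of the chromosome to Tax1bp1, which ends at 52766780, had medians of −0.54 uninduced and −0.47 induced. These genes were also below the WT_NT mean in WT_Dox, at −0.03, −0.17 and −0.14 in its 3 libraries. Against the WT_Dox mean, the 179 genes up to the limit were at −0.26 in induced clone 15, instead of −0.43 against the WT_NT mean. The 23 genes from Wipf3, which starts at 54429603, to the limit were at 0.18 and 0.28, and the members at 0.07 and 0.02. The same 2 stretches were at −0.62 and −0.67, and at −0.52 and −0.72, in clone 11, and at −0.07 and −0.12, and at 0.07 and −0.12, in clone 8. The point of division was chosen after the values were seen, and 1 window before it, of 6 genes, was at 0.04 and 0.11 in clone 15. The change of level in clone 15 thus lay before the first member, between genes that were low in both clones 11 and 15 and genes that were low in clone 11 of the 3 clones.

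**Figure D2:**
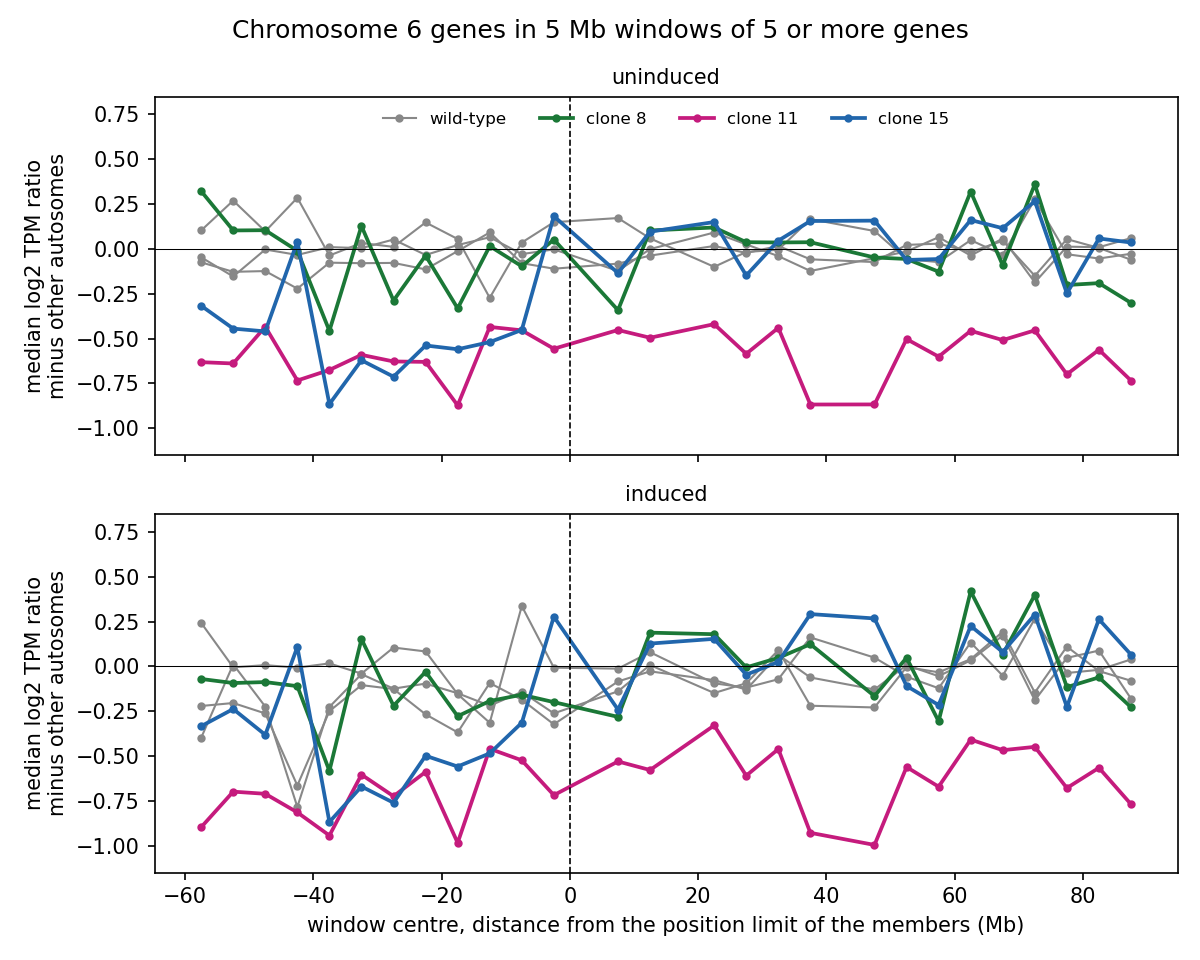
Median log2 TPM ratio to the WT_NT mean minus that of the other autosomes (vertical axis) for expressed chromosome 6 genes in windows of 5 Mb with at least 5 genes, against the distance of the window centre from the position limit in Mb, for each uninduced (upper panel) and induced (lower panel) library. Clone 11 lies below 0 on both sides of the dashed limit, at −0.54 and −0.55 over the members, and clone 15 leaves the level of clone 11 shortly before the limit.

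Intron reads, which come largely from transcripts not yet spliced, gave a second measure of the same genes. Over the 279 members with a mean of at least 20 intron reads in WT_NT, the median log2 ratio of intron reads, scaled to the same total in every library, was −0.53 and −0.53 in clone 11. It was 0.06 and 0.09 in clone 8 and 0.02 and 0.14 in clone 15. The low level of clone 11 was thus of about the same size in intron reads as in TPM.

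Members were then grouped by function, with lists drawn from general knowledge. All 8 lists had medians below 0 in clone 11. The medians of the averaged log2 ratio in clone 11 ran from −0.72 over 25 RNA processing and translation genes to −0.49 over 20 cell cycle and DNA repair genes and −0.49 over 26 genes of secretion and membrane traffic. Chromatin and transcription (32 genes) had −0.52, metabolic enzymes and transporters (23) −0.53, mitochondrial proteins (18) −0.59, protein folding and ubiquitin (14) −0.62 and signalling and adhesion (26) −0.63. The 158 members in no list had −0.52. In clones 8 and 15 the lists differed more from one another, from −0.19 over chromatin and transcription to 0.44 over metabolic genes in clone 8, and from −0.07 to 0.50 over the same lists in clone 15. Below all wild-type libraries in both clone 11 states lay 22 of 25 RNA processing genes, 16 of 20 cell cycle genes, 14 of 18 mitochondrial genes, 11 of 14 protein folding genes, 22 of 32 chromatin genes, 17 of 26 secretory genes, 13 of 23 metabolic genes and 14 of 26 signalling genes, against the 18.3% of all genes given above.

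**Figure D3:**
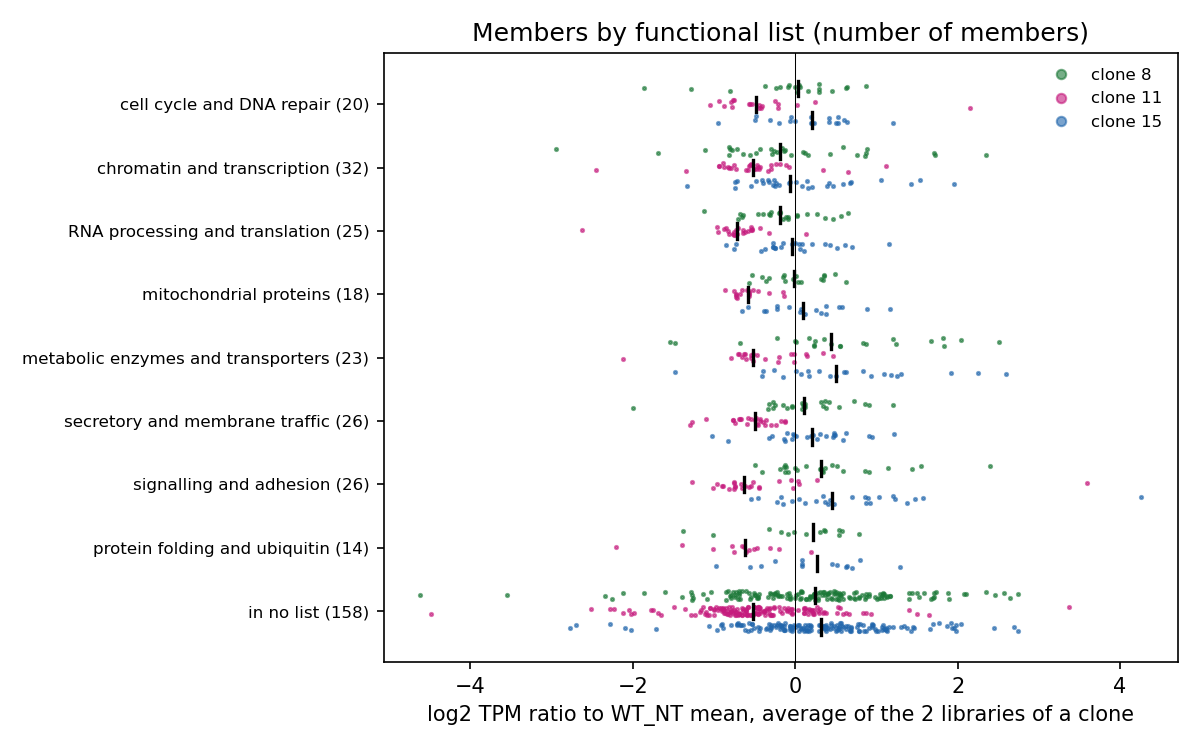
Log2 TPM ratio to the WT_NT mean, averaged over the uninduced and induced library of a clone (horizontal axis), for each member (dots) by functional list, with the list median as a black bar. The clone 11 medians lie between −0.72 and −0.49 in every list, to the left of those of clones 8 and 15.

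Cct7, a subunit of the chaperonin that folds actin and tubulin, was at 1222, 1189 and 1226 TPM in WT_NT and 1094, 1055 and 1046 TPM in WT_Dox. It was at 784 and 780.0 TPM in clone 11, 1109 and 1166 TPM in clone 8, and 1258 and 1307 TPM in clone 15. Clone 11 was below all wild-type libraries and clone 15 was above those of the same state. Cct7 had in clone 11 a log2 fold change of −0.67 ± 0.08 (edgeR adjusted p = 0.00285). Fkbp4, a co-chaperone of Hsp90, was at 1098, 1305 and 1385 TPM in WT_NT, 855, 1121 and 1137 TPM in WT_Dox, and 742 and 759 TPM in clone 11, and its levels of 962 and 1055 TPM in clone 8 and 888 and 833 TPM in clone 15 lay between those of clone 11 and WT_NT.

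Immt, which organises the inner mitochondrial membrane, was at 359, 361 and 368 TPM in WT_NT, 412, 396 and 404 TPM in WT_Dox, 217 and 219 TPM in clone 11, 294 and 284 TPM in clone 8, and 354 and 399 TPM in clone 15. Phb2, a mitochondrial prohibitin, was at 732 to 894 TPM in WT_NT, 508 and 491 TPM in clone 11, 623 and 619 TPM in clone 8 and 566 and 489 TPM in clone 15. The order of the clones thus differed between these mitochondrial genes, with clone 15 close to wild-type for Immt and close to clone 11 for Phb2.

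Rab7, a small GTPase of late endosomes, was at 321, 325 and 332 TPM in WT_NT, 288, 302 and 319 TPM in WT_Dox and 210.2 and 199 TPM in clone 11, while clones 8 and 15 ranged from 285 to 326 TPM. Sec13, a coat protein of transport vesicles, was at 287 to 332 TPM in WT_NT and at 217 and 195 TPM in clone 11, with clones 8 and 15 from 231 to 279.7 TPM. Cnbp, a nucleic acid binding protein of translation, was at 1149.7, 1081 and 1118 TPM in WT_NT, 1002, 888 and 905 TPM in WT_Dox, 752 and 697 TPM in clone 11, 906 and 899.6 TPM in clone 8 and 929 and 1047 TPM in clone 15. In these 3 genes clone 11 was below every other library. Sec13 passed the fit in clone 11 (edgeR adjusted p = 0.0307) but not with the block (limma-voom adjusted p = 0.0577), nor without wild-type replicate 2 (edgeR adjusted p = 0.110) or 3 (0.117).

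Ncapd2, a condensin subunit, was lower in clone 11 and higher in the other clones: 340.1, 349 and 338 TPM in WT_NT, 378, 434 and 451 TPM in WT_Dox, 243 and 262 TPM in clone 11, 509.5 and 557 TPM in clone 8 and 485 and 498 TPM in clone 15. It passed the fit in clone 11 (edgeR adjusted p = 0.0432) but not with the block (limma-voom adjusted p = 0.0955), nor without wild-type replicate 2 (edgeR adjusted p = 0.148) or 3 (0.0991). Emg1, an enzyme of ribosome biogenesis, was low in all 3 clones, with 522, 599 and 655 TPM in WT_NT against 355 and 384 TPM in clone 8, 342 and 316 TPM in clone 11 and 348 and 368 TPM in clone 15. Fam60a, a component of the Sin3 histone deacetylase complex, was at 552, 537 and 532 TPM in WT_NT, 298 and 265 TPM in clone 11, 326 and 292 TPM in clone 8 and 456 and 483 TPM in clone 15. Ybx3, a cold shock domain protein, was at 609.6, 659 and 677 TPM in WT_NT, and in clone 11 it was below these at 489 TPM uninduced, but its 470.2 TPM after induction lay within the 456 to 575 TPM of WT_Dox.

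**Figure D4:**
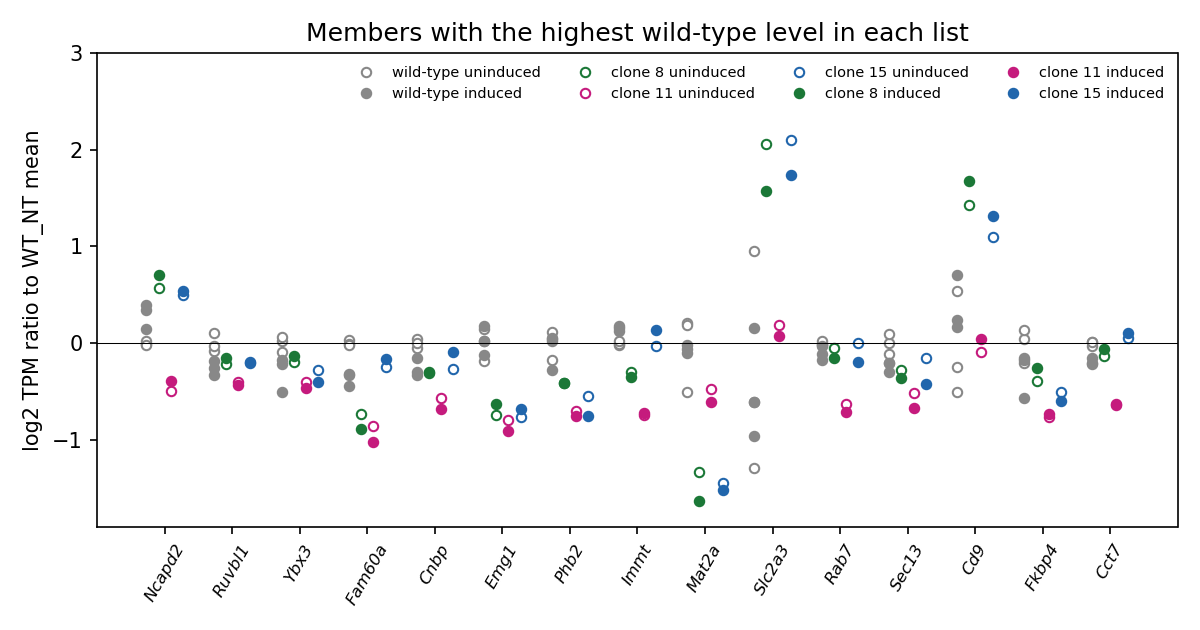
Log2 TPM ratio to the WT_NT mean (vertical axis) in every library for 15 members with the highest wild-type levels in the 8 functional lists, with open circles for uninduced and filled circles for induced libraries. Clone 11 lies between −0.94 and −0.42 on average in 12 of the 15 genes and also at −0.54 in Mat2a, while Slc2a3 and Cd9 are at 0.13 and −0.03.

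A few of these abundant members departed from the common pattern. Mat2a, which makes the methyl donor S-adenosylmethionine, was at 403, 659 and 649 TPM in WT_NT and 530.4, 562 and 549 TPM in WT_Dox. It was at 226 and 184 TPM in clone 8 and at 209 and 198 TPM in clone 15, below all wild-type libraries, while the 410.2 TPM of uninduced clone 11 lay within the wild-type range and its 373 TPM after induction below it. Slc2a3, a glucose transporter, was at 733, 248 and 155 TPM in WT_NT, 1576 and 1126 TPM in clone 8, 1626 and 1263 TPM in clone 15, and 432 and 398 TPM in clone 11. Cd9, a tetraspanin of the cell surface, was at 439.6, 254 and 213 TPM in WT_NT, 811 and 969 TPM in clone 8, 649 and 752 TPM in clone 15, and 284 and 310.5 TPM in clone 11. In Slc2a3 and Cd9 the wild-type libraries differed widely from one another, with replicate 1 the highest, and in both genes clone 11 lay inside their range in at least the uninduced state.

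Some members were much lower than the median of the clone. Among members of at least 5 TPM with both libraries of the clone outside the wild-type range of the same state, the rule for all highest and lowest members named here, the lowest averaged log2 ratios in clone 11 were those of Cxcl12 (−4.49), Eif4e3 (−2.63) and Fam19a4 (−2.28). Eif4e3, a cap-binding protein of translation, was at 3.91, 5.24 and 6.43 TPM in WT_NT, 6.88, 5.05 and 3.98 TPM in WT_Dox and 0.54 and 1.04 TPM in clone 11, while clone 8 had 6.65 and 7.75 TPM and clone 15 had 11.8 and 11.6 TPM. Its log2 fold change in clone 11 was −2.81 ± 0.35 (edgeR adjusted p = 0.00331), and clone 11 was the only clone below wild-type. With the replicate block it was −2.83 ± 0.74 (limma-voom adjusted p = 0.0541), so that the call was lost. Cxcl12, a chemokine, was at 2.46, 13.9 and 19.3 TPM in WT_NT, 0.87, 5.10 and 6.39 TPM in WT_Dox, 0.90 and 0.14 TPM in clone 8, 1.00 and 0.16 TPM in clone 11 and 2.75 and 0.98 TPM in clone 15. In clones 8 and 11 both libraries were below wild-type of the same state, while clone 15 lay within the wild-type range, and the wild-type libraries themselves differed widely. In the fit Cxcl12 passed in clone 8 (edgeR adjusted p = 0.0283) but not in clone 11 (0.0861). The call in clone 8 was lost with the block (limma-voom adjusted p = 0.0904) and without wild-type replicate 2 or 3 (edgeR adjusted p = 0.0815 and 0.0808), and clone 11 passed without replicate 1 (1.29e-05). Fam19a4, a secreted chemokine-like protein, was at 4.21 to 7.65 TPM in WT_NT, 0.99 and 1.19 TPM in clone 8, 1.28 and 0.89 TPM in clone 11 and 2.60 and 3.41 TPM in clone 15.

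A smaller number of members were above wild-type in clone 11. By the same rule Trh, the precursor of thyrotropin-releasing hormone, had the highest averaged ratio, at 1.64. It was at 359.8, 563 and 362 TPM in WT_NT, 138, 459 and 475 TPM in WT_Dox, 1557 and 1147 TPM in clone 11, 546 and 235 TPM in clone 8 and 314 and 214 TPM in clone 15. Both clone 11 libraries were above all others. Its log2 fold change was 1.997 ± 0.515 (edgeR adjusted p = 0.0493). The call was lost with the replicate block (limma-voom adjusted p = 0.0838), with TMM over other autosomes (edgeR adjusted p = 0.0510), and without wild-type replicate 2 (0.0966) or replicate 3 (0.154). Bcat1, an enzyme of branched-chain amino acid breakdown, and Abtb1 followed under this rule with averaged ratios of 0.46 and 0.38 and did not pass the fit, and clones 8 and 15 were also above 0 for both (0.24 and 0.63 for Bcat1, 0.87 and 0.30 for Abtb1). The 4 members called higher in clone 11 by the fit were Trh, Ccnd2, Fbln2 and Slc4a5, of which Ccnd2 and Fbln2 are named here after their values were seen. Ccnd2 and Fbln2 were lost without wild-type replicate 3 (edgeR adjusted p = 0.0766 and 0.0645) and Slc4a5 without replicate 2 (0.151). Ccnd2, a D-type cyclin, was at 5.23, 1.44 and 3.21 TPM in WT_NT, 1.01, 0.71 and 1.01 TPM in WT_Dox and 18.3 and 12.3 TPM in clone 11, against at most 2.32 TPM in the other clones.

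Clones 8 and 15 had other members at their extremes. Tspan9, a tetraspanin, Gprc5a, an orphan receptor, and Hebp1, a haem-binding protein, had the highest ratios in both clones by the rule above. Tspan9 was at 20.6, 5.52 and 6.23 TPM in WT_NT, 29.8, 12.1 and 12.6 TPM in WT_Dox, 63.0 and 73.6 TPM in clone 8 and 69.9 and 76.2 TPM in clone 15, while its 10.5 and 13.0 TPM in clone 11 lay within wild-type. Hebp1 was at 7.61, 5.25 and 3.23 TPM in WT_NT, 30.3 and 31.5 TPM in clone 8, 32.5 and 33.3 TPM in clone 15 and 5.28 and 6.64 TPM in clone 11. Tspan9 and Hebp1 were thus high in clones 8 and 15 and within the wild-type range in clone 11. Gprc5a was at 10.8, 9.14 and 5.43 TPM in WT_NT, 28.7, 28.4 and 27.4 TPM in WT_Dox, 46.9 and 54.4 TPM in clone 8, 47.9 and 63.6 TPM in clone 15 and 13.3 and 19.7 TPM in clone 11. Clone 11 was thus above WT_NT when uninduced and below WT_Dox when induced, which its averaged ratio to WT_NT of 0.93 does not show.

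By the same rule, the lowest members of clone 8 were Cxcl12, Fam19a4 and Foxp1, a forkhead transcription factor. It was at 28.8, 40.9 and 40.3 TPM in WT_NT, 21.0, 39.8 and 38.6 TPM in WT_Dox, 5.44 and 3.97 TPM in clone 8, 16.8 and 12.2 TPM in clone 11 and 16.4 and 12.7 TPM in clone 15. All 6 clone libraries were below the wild-type libraries. The lowest members of clone 15 by this rule, which leaves out Cxcl12 (−2.77), were Tmem40, Foxi3, a forkhead factor, and H2afj, an H2A histone variant, with averaged ratios of −2.09, −2.03 and −1.71. Their ratios in clone 11 were −2.23, −2.02 and −0.83, and in clone 8 −0.80, −2.12 and −1.40, so that none of the 3 was low in clone 15 alone. At the other end, Tigar, which lowers fructose bisphosphate levels, was the member with the smallest change from WT_NT over the 3 clones, with averaged ratios of −0.10, 0.02 and −0.05 in clones 8, 11 and 15, although WT_Dox, at 80.8, 65.5 and 73.3 TPM, was above the 43.4 to 56.5 TPM of WT_NT.

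The second question was whether Xist induction changed the members. The medians of the set given above lay close together in the uninduced and induced library of each line, with the widest step in clone 15, from 0.27 to 0.20. At a fold change over 2 and adjusted p under 0.01 (edgeR quasi-likelihood test), 0 of 342 members were called in WT_Dox against WT_NT, with 1.16% of all genes called. DESeq2 called 10, against 4.73% of all genes, and edgeR called 9 at adjusted p under 0.05 without a fold limit, against 4.56% of all genes. In the clones 0 of 341 tested members were called by edgeR, with 0% of all genes called, and DESeq2 called 1, A2m, against 0.243% of all genes. The interaction of genotype and induction called 0 of 342, with 0% of all genes, and DESeq2 called 0, against 0.218% of all genes. For dCdk8_NT against WT_NT, the contrast whose WT_NT values chose the members, edgeR called 0 with 0% of all genes and DESeq2 called 15, against 2.64%.

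Libraries with the same number deviated together, and with the replicate number as a block edgeR called 4 members lower and 7 higher in wild-type, against 2.48% and 1.47% of all genes. It called 4 lower in the clones, against 1.27%, and 1 lower in the interaction, against 0.218%. At adjusted p under 0.05 without a fold limit the blocked fit called 76 members in wild-type, 43 in the clones and 20 in the interaction, against 23.0%, 11.8% and 6.01% of all genes. Rtkn was at 3.26, 2.99 and 5.01 TPM in WT_NT and 14.2, 9.39 and 10.4 TPM in WT_Dox, a log2 fold change of 1.62 ± 0.21 (edgeR with block, adjusted p = 0.00636). Aldh1l1, a folate enzyme, Iffo1, Apobec1, an RNA-editing cytidine deaminase, and Gprc5a rose likewise, with log2 fold changes of 1.71, 1.50, 1.49 and 1.83 in the blocked fit. Without the block none of these passed, with adjusted p from 0.0164 for Gprc5a to 0.257 for Apobec1.

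Of the members lower in WT_Dox in the blocked fit, Ltbr, a receptor of the tumour necrosis factor family, was at 3.94, 6.39 and 6.99 TPM uninduced and 1.59, 2.48 and 2.18 TPM induced. The others were Slc4a5, a bicarbonate transporter, Rnf103, a ubiquitin ligase, and Cxcl12, with log2 fold changes of −1.61, −1.48 and −1.49. In the clones the blocked fit called A2m, a protease inhibitor, Cxcl12 and the circadian repressors Bhlhe40 and Bhlhe41, with log2 fold changes of −2.18, −2.14, −1.37 and −1.74. Bhlhe40 was at 143, 47.9 and 177 TPM in the uninduced and 42.2, 18.7 and 84.8 TPM in the induced libraries of clones 8, 11 and 15, so that each clone fell while the clones kept apart from one another. In wild-type it was at 105, 20.6 and 10.9 TPM uninduced and 7.92 to 20.1 TPM induced.

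Smarcad1, a chromatin remodeller, lay just inside the position limit, at 65042583. It was at 127 to 149 TPM in WT_NT and 105 and 92.8 TPM in clone 11. Just outside lay Tigd2 at 59208870, with 10.2 to 14.5 TPM in WT_NT and 7.07 and 5.70 TPM in clone 11, and Nap1l5 at 58905233. Nap1l5, an imprinted gene expressed from the paternal copy, was at 5.94, 3.01 and 4.98 TPM in WT_NT, 7.14, 2.46 and 3.52 TPM in WT_Dox, 2.10 and 2.84 TPM in clone 8, 2.79 and 2.75 TPM in clone 15 and 0.00 and 0.04 TPM in clone 11. At the TPM limit, Eva1a and Nat8f1 just passed, with WT_NT levels of 0.76 to 1.50 and 0.86 to 1.44 TPM, and Zfand4 and C1rl just missed it, with 0.68 to 1.23 and 0.61 to 1.71 TPM.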

How the data were processed

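RNA was poly(A) enriched, libraries were made with a stranded kit and, per the study's methods, the authors aligned single-end reads to GRCm38 with its Ensembl annotation in CLC Genomics Workbench 11. Each of the 12 deposited tables gives read counts per gene (total gene, exon, unique exon and intron reads) and TPM, as the authors computed it from exon reads and length. How reads shared by overlapping genes or near-identical copies were assigned, and whether strand was used, is not given in the sources used here, so Emg1, Cct7, Rtkn, Iffo1, Hebp1, Foxp1 and Eif4e3, which overlap other protein-coding genes, are uncertain to that extent.

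Ratios were log2((TPM + 0.1)/(WT_NT mean + 0.1)), which understates changes of low genes. Counts were tested with edgeR 4.0.16 (TMM, filterByExpr, quasi-likelihood test, Benjamini-Hochberg adjustment over all genes tested), for induction within each genotype, their interaction, and genotype, with DESeq2 1.42.0 and limma 3.58.1 as alternatives. The study's thresholds (fold change over 2, adjusted p under 0.01) and no covariates were used for these. Each clone was compared with wild-type in 1 fit of line, induction and the interaction of induction with genotype, at adjusted p under 0.05. The log2 fold change of a clone in this fit is its fitted difference from wild-type in the uninduced state. The fits were run on simulated counts. A minimum recovery of changed genes was required of every fit except the interaction, so this run does not vouch for the lack of interaction calls. Uninduced and induced libraries of the same number deviated together over genes (correlations of 0.70, 0.57 and 0.57 in wild-type, and 0.86, 0.89 and 0.82 for clones 8, 11 and 15, which are the same clone), so the replicate block is given where it changed a call of a named member. No 2 libraries held identical values.

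The members and lists were chosen with earlier results of these data known. Members named are the 2 most abundant of each list, per clone the 3 highest and 3 lowest of at least 5 TPM that lie outside the wild-type range in both states, up to 5 per direction called in an induction contrast or the interaction, those next to the limits and the one with the smallest change; 2 of these are not reported here. Depth was 22170087 to 60798578 gene reads per library. Alternatives were another pseudocount, TPM limit, scaling, read type, reference, tool, filter, threshold and leaving out each replicate.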

Additional observations from a re-analysis of the deposited data

Results flagged for a closer look

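Gprc5a was the 1 member for which the response to Xist induction differed between the genotypes at a fold change over 2 and adjusted p under 0.01, in the fit with the replicate block. At adjusted p under 0.05 without a fold limit, 20 members were called in the same fit, 13 lower and 7 higher, against 6.01% of all genes. In wild-type its log2 fold change with the block was 1.83, and the interaction, the response of the clones minus that of wild-type, was −1.39 ± 0.22 (edgeR with block, adjusted p = 0.00776; 0.218% of all genes were called lower). Without the block the interaction was −1.37 with an adjusted p of 1.00, so it passed only with the block. Gprc5a was at 10.8, 9.14 and 5.43 TPM in WT_NT and 28.7, 28.4 and 27.4 TPM in WT_Dox. In clones 8, 11 and 15 it was at 46.9, 13.3 and 47.9 TPM uninduced and at 54.4, 19.7 and 63.6 TPM induced, higher with induction in 3 of 3 clones.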

How the results depend on the processing

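The member medians of clone 11 stayed between −0.74 and −0.50 in both states under all alternatives, including intron reads and the comparison with clones 8 and 15, both added after seeing the data. The low end comes from the comparison with clones 8 and 15, where the values relative to other autosomes were −0.56 and −0.61. Those of clones 8 and 15 depended on the scaling: with TMM-scaled counts they became −0.011 in uninduced clone 8 and −0.022 and −0.055 in uninduced and induced clone 15, against 0.15, 0.27 and 0.20 with TPM. Leaving out each wild-type replicate from the reference kept the medians between 0.08 and 0.16 in clone 8, −0.55 and −0.55 in clone 11 and 0.18 and 0.26 in clone 15.

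Counts of called members moved most. For induction in wild-type, where edgeR called 0, DESeq2 called 10, adjusted p under 0.05 at any fold 9, the replicate block 11, and the block at adjusted p under 0.05 (added after seeing the data) 76. Leaving out replicate 2 or 3 kept it at 0. Some members were called without replicate 1, in a fit whose share of all genes called is not given here. In the clones DESeq2 called 1, the block 4 and the block at adjusted p under 0.05 called 43. The interaction went to 1 with the block and 20 with the block at adjusted p under 0.05. For dCdk8_NT against WT_NT DESeq2 called 15. In the fits of clones 8, 11 and 15, a fold over 2 with adjusted p under 0.01 left 22, 15 and 10 members, and leaving out each wild-type replicate gave 47 to 239, 59 to 246 and 28 to 228. The replicate block left 88 in clone 11. The cause of these differences was not tested.

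In the clone 11 fit, the log2 fold change of Slc2a3 ran from −0.076 without replicate 3 to 1.19 without replicate 1, where it was called, and that of Cd9 from −0.34 without replicate 3 to 0.21 without replicate 1, called in neither. In the other genes and contrasts recomputed under the alternatives the direction held, and members named for their levels alone were not recomputed. No replicate block was run for dCdk8_NT against WT_NT, whose libraries share no number. Each clone has 2 libraries, so the spread within a clone could be estimated only from an uninduced and an induced library.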
